A study of Mus musculus with 16 samples.

Results

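The cytotoxic granule and killing genes were followed across 16 RNA-seq libraries of mouse CD8+ T cells. The set was chosen by name and holds 10 of the 54532 genes in the count table: Gzma, Gzmb, Gzmc, Gzmk, Gzmm, Prf1, Srgn, Nkg7, Fasl and Serpinb9. Each symbol matched a single row, and all 10 were listed as protein-coding. The cells came from spleens of C57BL/6J mice: naive CD8+ T cells were activated repeatedly in culture for 4 days to give TCF1+CD8+ T cells, an in vitro stand-in for the stem-like cells that sustain T cell responses in tumours, with no tumour and no target cell present. Every culture then spent 1 h with or without prostaglandin E2 (PGE2) at 100 ng/ml, followed by 4 h in low-dose IL-2 at 85 U/ml, either alone or together with anti-CD3/CD28 beads at 1 bead per cell. This made 4 groups of 4 replicates: unstimulated untreated, unstimulated PGE2-treated, stimulated untreated and stimulated PGE2-treated cells, where unstimulated means IL-2 alone and all 4 groups received IL-2. Per the methods of the study, mice were 6 to 12 weeks old and matched for sex across groups. The sex of the mice and what replicates with the same number shared are not given in the sources used here, so p-values measure the spread between these libraries.

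Killer T cells store their weapons in secretory granules. Granzymes are serine proteases held there on the proteoglycan serglycin (Srgn), and perforin (Prf1) forms pores in the membrane of the target cell through which granzymes enter and trigger death. NKG7 is a membrane protein of the granule that takes part in its release. Fas ligand (Fasl) is a surface protein that kills through the death receptor Fas, without perforin, and Serpinb9 is an intracellular inhibitor of granzyme B that shields the killer from its own protease. T cell receptor and IL-2 signals induce much of this programme. PGE2 acts on T cells through the receptors EP2 and EP4, which raise cyclic AMP.

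The loci are given in GRCm38, as in the count table. Gzmb (chr14:56258838-56262260) and Gzmc (chr14:56231441-56234656) are neighbours in the granzyme cluster of chromosome 14, and Gzma (chr13:113093825-113100981) and Gzmk (chr13:113171608-113225908) are neighbours on chromosome 13, which also carries Serpinb9 (chr13:33003250-33017957). Prf1 (chr10:61297833-61304680), Srgn (chr10:62493833-62527451) and Gzmm (chr10:79689020-79695261) lie on chromosome 10, Nkg7 (chr7:43437073-43438249) on chromosome 7 and Fasl (chr1:161780689-161788495) on chromosome 1. No member shared exon bases with another gene of the GENCODE M21 annotation, which matched 54409 of the 54532 genes in the count table. Under that annotation no reads would be split between overlapping genes, but the release used for counting is not given.

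The 250 bases before the RefSeq start of 4 members are shown in GRCm38.p6 because these genes responded to PGE2 in different ways: Gzmb and Nkg7 were lower in PGE2-treated cells, Fasl was higher, and Gzmc, the neighbour of Gzmb, did not pass the test. The windows are chr14:56262335-56262584 for Gzmb, chr14:56234658-56234907 for Gzmc and chr1:161788496-161788745 for Fasl, all on the minus strand, and chr7:43436888-43437137 on the plus strand for Nkg7, each written 5′ to 3′ on the strand of its gene. Capitals mark 5 motifs searched on both strands: the cyclic AMP response element half-site TGACG, the AP-1 site TGANTCA, the NFAT core GGAAA, the STAT site TTCNNNGAA, whose letters can overlap those of GGAAA, and the T-box half-site GGTGTGA.
Gzmb: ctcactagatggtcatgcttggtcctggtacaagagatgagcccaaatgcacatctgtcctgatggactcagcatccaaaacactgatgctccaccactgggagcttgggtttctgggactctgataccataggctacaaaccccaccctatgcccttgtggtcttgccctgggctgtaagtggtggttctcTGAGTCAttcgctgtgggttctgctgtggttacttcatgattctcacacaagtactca
Gzmc: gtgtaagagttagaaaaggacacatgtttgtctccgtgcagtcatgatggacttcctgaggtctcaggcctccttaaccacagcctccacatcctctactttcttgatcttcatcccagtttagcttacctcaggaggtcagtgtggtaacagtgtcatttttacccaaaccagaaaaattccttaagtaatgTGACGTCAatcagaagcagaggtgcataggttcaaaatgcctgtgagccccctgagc
Nkg7: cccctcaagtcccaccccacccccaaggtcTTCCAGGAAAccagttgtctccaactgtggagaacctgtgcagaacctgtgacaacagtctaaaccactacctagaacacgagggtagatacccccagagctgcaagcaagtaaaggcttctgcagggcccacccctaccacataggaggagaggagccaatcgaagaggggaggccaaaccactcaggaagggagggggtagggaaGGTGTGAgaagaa
Fasl: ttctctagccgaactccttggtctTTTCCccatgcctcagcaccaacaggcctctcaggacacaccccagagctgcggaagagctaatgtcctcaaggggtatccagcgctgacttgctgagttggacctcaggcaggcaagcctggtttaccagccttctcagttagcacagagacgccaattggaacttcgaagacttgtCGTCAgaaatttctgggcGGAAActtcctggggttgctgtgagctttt
In the Gzmb window the capitals are 1 AP-1 match, 58 to 52 bases before the start. In Gzmc they are 2 half-sites of the cyclic AMP response element, 1 on each strand and overlapping, which together span bases 57 to 50 before the start. Nkg7 held an NFAT core overlapping a STAT match and a T-box half-site 13 to 7 bases before its start, and Fasl held a cyclic AMP half-site on the opposite strand with an NFAT core on either side of it. Of the 10 members, 4 had TGACG in a window (Gzmc, Prf1, Srgn and Fasl), against 17.8% of 32851 windows of the same length before RefSeq starts. TGANTCA was found for 1 member (Gzmb) against 6.75% of windows, GGAAA for 6 against 55.6%, TTCNNNGAA for 2 (Gzmm and Nkg7) against 7.02%, and GGTGTGA for 3 (Gzmk, Gzmm and Nkg7) against 3.33%. Srgn and Gzmm have 2 RefSeq starts and so had 2 windows each. Members are counted over all their windows, whereas the shares are per single window. All matches of Srgn, and the GGTGTGA of Gzmm, lay in only 1 of the 2 windows of the gene. These matches are letters only, and no binding was measured.

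The libraries held 22678254 to 42950763 counts (median 30211840.5), mitochondrial genes took 1.43% to 1.77% of counts, and no pair of replicates of a group agreed within counting noise. The labelled cell type was borne out by its markers: all 6 CD8 T cell genes on the list were detected, and Tcf7, which encodes TCF1, stood at 1174 ± 238 CPM (counts scaled to library size, mean ± SD, n = 4) in unstimulated untreated cells and at 308 ± 16.5 CPM in stimulated untreated cells. Cd4 reached at most 1.87 CPM. Natural killer cells and mast cells also carry granzymes and serglycin. Of 6 natural killer markers, only Eomes, which T cells also express, passed 1 CPM in any library. The summed level of that list ran over 12.4 to 24.1, 5.57 to 10.9, 112 to 178 and 36.5 to 128 CPM in unstimulated untreated, unstimulated PGE2-treated, stimulated untreated and stimulated PGE2-treated cells, with Ncr1 and Klra8 at 0 everywhere. Of 4 mast cell markers, only Kit passed 1 CPM, and the summed list ran over 21.1 to 50.7, 98.8 to 126, 40.6 to 73.2 and 77.4 to 139 CPM in the same order, with Mcpt4 and Tpsb2 at 0 and Cpa3 at no more than 0.738 CPM. Kit thus moved with PGE2 (log2 fold change 1.63, SE 0.218, adjusted p = 0.000251 in unstimulated cells, and 0.95, SE 0.221, adjusted p = 0.0256 in stimulated cells). The part of Kit-expressing or Eomes-expressing cells in the results below was not tested.

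PGE2 did not move the killing genes as a block: Gzmb and Nkg7 fell while Fasl and Gzma rose. In stimulated cells, Gzmb, Prf1 and Nkg7 were lower and Gzma and Fasl higher with PGE2, so that 5 of the 9 members that passed the filter on low counts were called (adjusted p below 0.05 in edgeR), beside 9.84% of the 13922 genes tested (6.04% higher and 3.8% lower). In unstimulated cells Gzmb, Nkg7 and Gzmk were lower and Gzma, Srgn, Fasl and Serpinb9 higher, or 7 of 10 called beside 28.4% of 14505 genes (12.9% higher and 15.5% lower). Of these members, Gzmk passed the filter only through the untreated libraries, where it was higher. Samples with the same replicate number deviated together in these comparisons, and a fit with the number as a block called 6 of 9 members beside 39.8% of genes and 7 of 10 beside 47.8%. Asking also for a fold change of at least 2 left 1 member in stimulated cells (Fasl), beside 1.75% of genes, and 2 in unstimulated cells (Fasl and Gzmk), beside 3.38%. The 4 replicates of the compared groups did not overlap in 5 members in each comparison, beside 17.9% and 28.8% of genes. The median log2 fold change over the tested members was -0.12 in stimulated and -0.18 in unstimulated cells, against -0.01 and -0.00 over all genes tested. Since whole cultures were sequenced, fewer cells expressing a gene and less RNA per cell cannot be told apart here.

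Stimulation raised most of the set. Without PGE2, 7 members rose and 2 fell with the beads, which is 9 of 10 called beside 66.5% of 14205 genes (31.7% higher and 34.8% lower), and all 10 had groups that did not overlap, beside 61.6%. Of the 2 that fell, Gzmk passed the filter only through the unstimulated libraries, where it was higher. With PGE2 present, 7 rose and 1 fell of 9 tested, beside 64.2% of 14507 genes (32.5% higher and 31.7% lower), with 7 not overlapping, beside 60.2%. Changes of at least 2-fold were found in 7 members without PGE2, beside 23.2%, and in 6 with it, beside 22.1%. The median member changed by 1.27 on the log2 scale without and 1.18 with PGE2, against -0.03 and 0.00 over all genes tested. The PGE2 and stimulation comparisons share groups, so their values are set side by side and not counted as separate evidence.

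**Figure D1:**
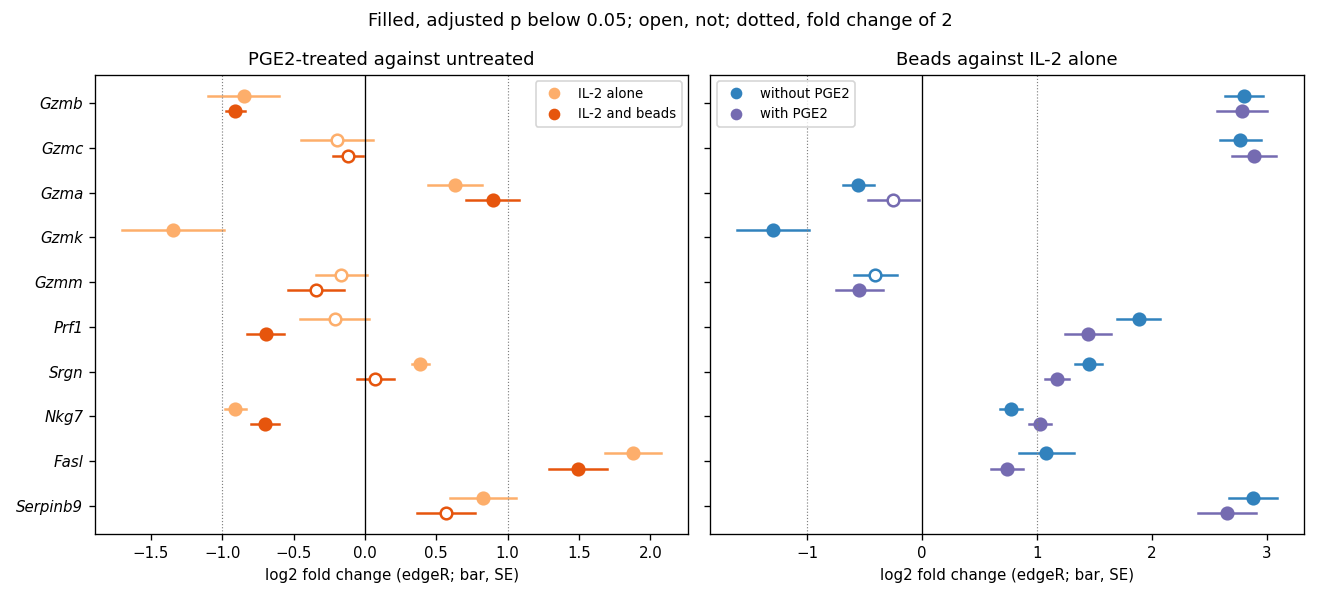
Log2 fold change of each of the 10 genes on the x axis (point, edgeR estimate with its SE as a bar, dotted lines at 2-fold), for PGE2-treated against untreated cells on the left and for beads against IL-2 alone on the right. On the left Gzmb and Nkg7 sit below 0 and Fasl at 1.49 and 1.88, and on the right Gzmb, Gzmc and Serpinb9 lie between 2.66 and 2.89. Filled points have an adjusted p below 0.05, and Gzmk has no point where it was not tested.

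Levels per length set Gzmb apart. On the deposited FPKM scale (fragments scaled to gene length and depth), Gzmb was at 498 ± 139.6 (SD, n = 4) in unstimulated untreated cells, rank 81 of 22046 protein-coding genes, and at 275 ± 102 with PGE2, rank 133. In stimulated cells it reached 3509.6 ± 123, rank 4, and 1858 ± 109.9 with PGE2, rank 9. Nkg7 and Srgn followed in every group, and the order of these genes turned with PGE2. Nkg7 lay above Srgn without PGE2 (211 ± 18.8 against 111 ± 7.13 FPKM in unstimulated cells, and 365 ± 47.7 against 306 ± 59.2 in stimulated cells, where their replicates overlapped), whereas Srgn lay above Nkg7 with it (145 ± 3.04 against 112 ± 6.95, and 319 ± 46.2 against 223 ± 27.5 FPKM, without overlap). Serpinb9 came next in all 4 groups. Below it, Gzma, Gzmc, Prf1 and Fasl overlapped their neighbours in unstimulated cells, at means between 1.93 and 10.5 FPKM. In stimulated untreated cells they separated into Gzmc at 36.4 ± 4.23, Prf1 at 11.8 ± 1.05, and Gzma at 4.70 ± 0.476 with Fasl at 4.18 ± 1.31 FPKM, the last pair overlapping. With PGE2 the stimulated order below Gzmc became Fasl at 11.7 ± 1.72, Gzma at 8.70 ± 2.18 and Prf1 at 7.24 ± 1.45 FPKM, each overlapping the next, so that the mean of Fasl moved from below that of Prf1 to above it. Gzmm (means of 0.778 to 1.31 FPKM) and Gzmk (0.138 to 0.463 FPKM) were last in each group. Together the 10 genes took 0.132% ± 0.0236 of all counts in unstimulated untreated cells, 0.1003% ± 0.0206 with PGE2, 0.619% ± 0.0248 after stimulation and 0.404% ± 0.0195 after stimulation with PGE2.

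**Figure D2:**
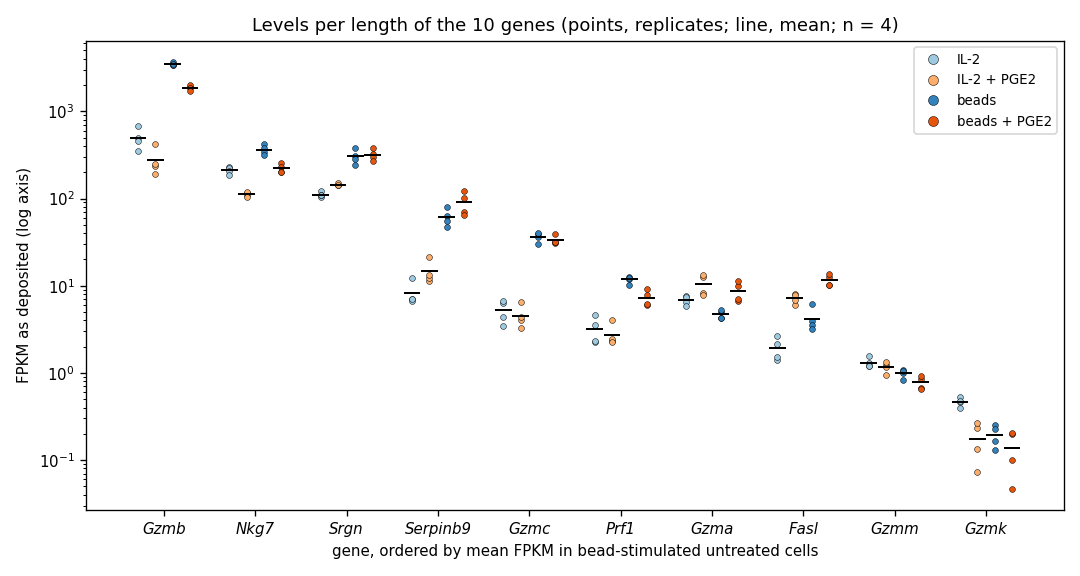
Deposited FPKM on a log axis for the 10 genes, ordered along the x axis by their mean in stimulated untreated cells (points are the 4 replicates of each group and lines their mean). Gzmb lies above the other 9 genes in all 4 groups, at 193 to 687 FPKM in unstimulated and 1724 to 3684 FPKM in stimulated cells, and Gzmm and Gzmk lie at the bottom.

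Granzyme B cleaves caspases in the target cell. In stimulated cells Gzmb was at 5037, 5501, 5247 and 5408 CPM in replicates 1 to 4 without PGE2 and at 2823, 2997, 2795 and 2619 CPM with it. The replicates of each group lay close together and the groups were far apart. PGE2 lowered Gzmb 1.88-fold there (log2 fold change -0.91, SE 0.0684, adjusted p = 0.000109), just short of the 2-fold mark. In unstimulated cells the values were 529.8, 738, 699 and 1041 CPM without and 287, 349.5, 367 and 637 CPM with PGE2. Replicate 4 was the highest of both groups, and the PGE2-treated replicate 4 lay above the untreated replicate 1, although each PGE2-treated library was below the untreated one of the same number. The log2 fold change was -0.85 (SE 0.250, adjusted p = 0.0249), 1.80-fold lower. This call was lost without any 1 of unstimulated untreated replicates 2 and 4 or PGE2-treated replicates 2 and 3 (adjusted p = 0.0544, 0.0689, 0.0772 and 0.0695) and with DESeq2 (adjusted p = 0.0521). It was kept with the replicate number as a block. The beads raised Gzmb 6.97-fold without PGE2 (log2 fold change 2.80, SE 0.167, adjusted p = 3.94e-08) and 6.90-fold with it (2.79, SE 0.220, adjusted p = 2.62e-06).

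Gzmc encodes granzyme C, another protease of activated killer cells. It rose with stimulation as much as Gzmb but did not pass the test for PGE2. The replicates ran over 3.22, 5.89, 4.16 and 6.35 CPM in unstimulated untreated cells and 3.02, 3.74, 4.02 and 6.05 CPM in unstimulated PGE2-treated cells. After stimulation they were 35.6, 33.8, 37.9 and 29.2 CPM without and 28.9, 36.7, 29.9 and 29.6 CPM with PGE2. Stimulated and unstimulated libraries were fully apart, and those with and without PGE2 overlapped in both conditions. The stimulation response was 2.77 on the log2 scale without PGE2 (SE 0.178, adjusted p = 6.13e-08) and 2.89 with it (SE 0.193, adjusted p = 1.43e-06). The PGE2 effect was -0.12 (SE 0.104, adjusted p = 0.47) in stimulated and -0.20 (SE 0.253, adjusted p = 0.613) in unstimulated cells. No stretch of 75 bases was shared between any member and another gene's transcripts, Gzmb and Gzmc included. The difference between the Gzmb and Gzmc effects was not tested.

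Granzyme A, the tryptase of the granule, went the other way from granzyme B. Gzma was at 6.83, 8.12, 6.19 and 7.76 CPM in unstimulated untreated cells and at 8.54, 13.2, 8.18 and 14.0 CPM with PGE2. In stimulated cells it was at 4.42, 5.25, 5.57 and 4.64 CPM without and 7.02, 10.4, 7.54 and 11.95 CPM with PGE2. Every PGE2-treated library exceeded every untreated one of the same stimulation, and replicates 2 and 4 were the higher ones in both PGE2-treated groups. PGE2 raised Gzma by 0.90 on the log2 scale in stimulated cells (SE 0.185, adjusted p = 0.0153, 1.86-fold) and by 0.63 in unstimulated cells (SE 0.187, adjusted p = 0.0262, 1.55-fold). The second call was lost without unstimulated untreated replicate 1 or 3, or PGE2-treated replicate 2 or 4 (adjusted p = 0.0587, 0.0754, 0.0757 and 0.0698). It was kept with the replicate number as a block. With beads and no PGE2 Gzma fell by 0.56 on the log2 scale (SE 0.135, adjusted p = 0.0028), and with PGE2 the response was -0.25 (SE 0.221, adjusted p = 0.337).

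Gzmk and Gzmm were scarce. Gzmk, encoding another tryptase that is common in memory T cells, had 13, 23, 24 and 23 counts in unstimulated untreated libraries and 3, 12, 7 and 15 counts with PGE2, or 0.573 to 0.765 against 0.105 to 0.382 CPM without overlap. It fell by 1.35 on the log2 scale (SE 0.359, adjusted p = 0.0158), and without PGE2-treated replicate 3 the adjusted p was 0.0519. Gzmk passed the filter in this comparison only through the untreated libraries, where it was higher. Asking for at least 10 counts in every library removed it, with 6 of 9 members then called. Stimulated libraries had 7, 10, 6 and 8 counts without and 2, 7, 5 and 7 with PGE2, too few for the filter in both comparisons that involve stimulated PGE2-treated cells. The beads lowered Gzmk by 1.30 on the log2 scale without PGE2 (SE 0.311, adjusted p = 0.00255). Here the gene passed the filter only through the unstimulated untreated libraries, where it was higher. With at least 10 counts asked for in every library it was removed, and 8 of 9 members were called. Gzmm, encoding granzyme M, had 31 to 72 counts in untreated and 25 to 80 counts in PGE2-treated libraries, and neither PGE2 effect passed the test (-0.34, SE 0.197, adjusted p = 0.284 in stimulated cells, and -0.16, SE 0.177, adjusted p = 0.542 in unstimulated cells). The bead response of Gzmm was -0.41 (SE 0.187, adjusted p = 0.0722, or 0.0471 with the replicate number as a block) without PGE2 and -0.55 (SE 0.204, adjusted p = 0.0353) with it. The second call was lost without unstimulated PGE2-treated replicate 2 or 4 or stimulated PGE2-treated replicate 2 or 3 (adjusted p = 0.0687, 0.0910, 0.0763 and 0.0836).

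**Figure D3:**
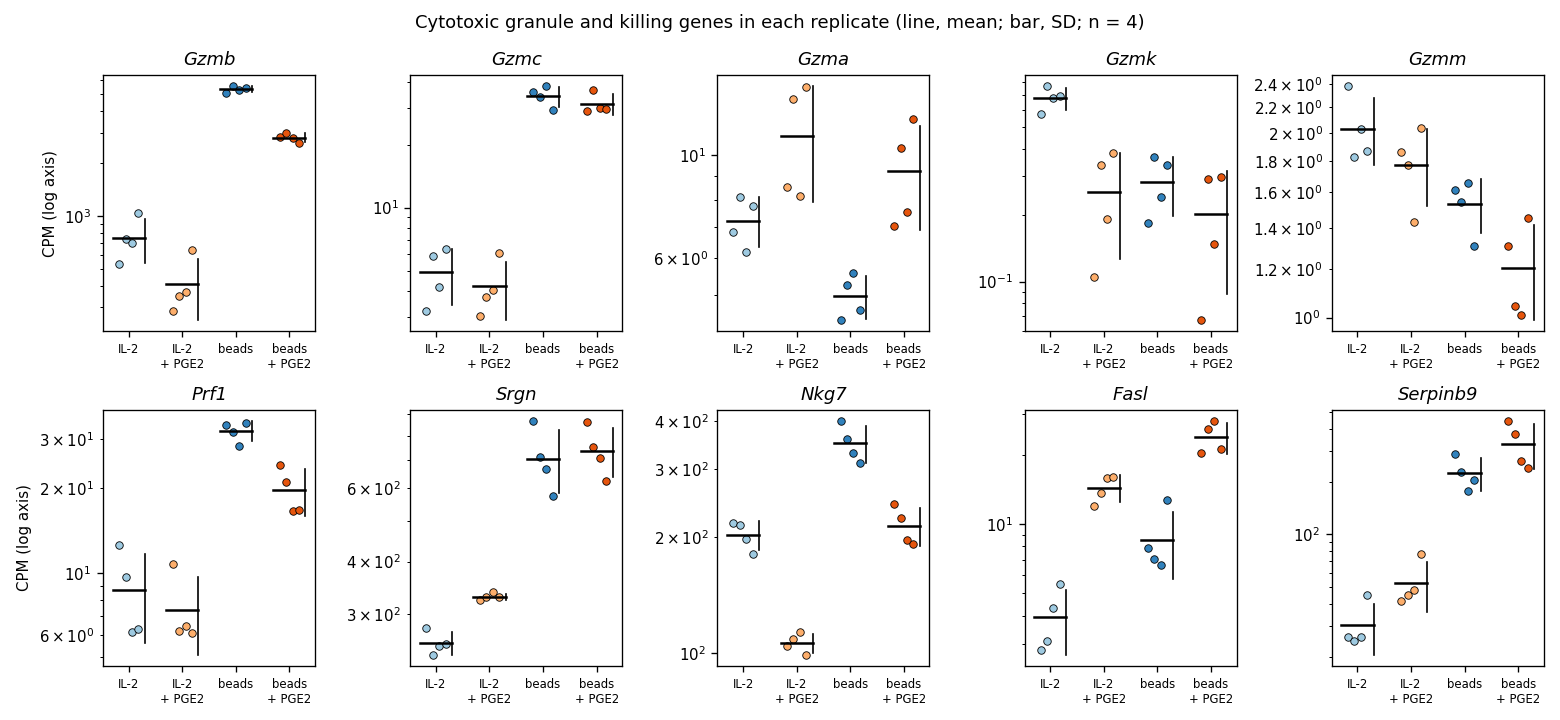
CPM on a log axis for each gene in the 4 groups (points are replicates, horizontal lines the mean and vertical bars the SD, n = 4). Gzmb, Prf1 and Nkg7 are lower in stimulated PGE2-treated than in stimulated untreated cells, Fasl and Gzma are higher, and Gzmc and Srgn overlap.

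Perforin was expressed at a low level before stimulation. Prf1 was at 12.5, 9.68, 6.16 and 6.32 CPM in unstimulated untreated cells and at 10.7, 6.19, 6.44 and 6.11 CPM with PGE2, overlapping groups with replicate 1 the highest of each. The PGE2 effect there was -0.21 (SE 0.243, adjusted p = 0.568). After stimulation it was at 33.5, 31.8, 28.3 and 34.2 CPM without and 24.3, 21.1, 16.5 and 16.7 CPM with PGE2, and the groups were apart. PGE2 lowered Prf1 1.62-fold in these cells (log2 fold change -0.70, SE 0.129, adjusted p = 0.0091). The beads raised it by 1.89 on the log2 scale without PGE2 (SE 0.188, adjusted p = 1.96e-06) and by 1.44 with it (SE 0.199, adjusted p = 8.89e-05), and the difference between these responses did not pass the test (-0.47, SE 0.302, adjusted p = 0.737).

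Nkg7 fell with PGE2 in both conditions with little spread. It was at 218, 215, 198 and 181 CPM in unstimulated untreated cells and at 104, 109, 113 and 99.3 CPM with PGE2. In stimulated cells it was at 399, 359, 331 and 311 CPM without and 244, 224, 197 and 192 CPM with PGE2. No libraries overlapped in either comparison, and stimulated PGE2-treated cells stood near the level of unstimulated untreated cells. The log2 fold change with PGE2 was -0.91 (SE 0.0736, adjusted p = 1.05e-05) in unstimulated and -0.70 (SE 0.0994, adjusted p = 0.00248) in stimulated cells, 1.88-fold and 1.62-fold lower. Stimulation raised Nkg7 by 0.78 without PGE2 (SE 0.0967, adjusted p = 1.40e-05) and by 1.03 with it (SE 0.0962, adjusted p = 6.59e-06).

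Serglycin, which holds granzymes inside the granule, rose with stimulation and, in unstimulated cells, with PGE2. Srgn was at 278, 239.6, 251 and 254 CPM in unstimulated untreated cells and at 324, 328, 338 and 328 CPM with PGE2. After stimulation the values spread more widely, at 866, 709.7, 667 and 574 CPM without and 862, 752, 706 and 624 CPM with PGE2, and these groups overlapped. PGE2 raised Srgn 1.31-fold in unstimulated cells (log2 fold change 0.39, SE 0.0594, adjusted p = 0.000592), while in stimulated cells the change was 0.07 (SE 0.129, adjusted p = 0.747). The difference between these effects was -0.30 (SE 0.151, adjusted p = 0.575), so that they were not shown to differ. The beads raised Srgn by 1.45 without PGE2 (SE 0.119, adjusted p = 3.62e-07) and by 1.18 with it (SE 0.101, adjusted p = 3.96e-06).

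Fasl showed the largest PGE2 effect among the members, and it was upward. In unstimulated cells it was at 2.82, 3.09, 4.33 and 5.48 CPM without PGE2 and at 11.98, 13.6, 15.9 and 16.1 CPM with it. After stimulation the values were 7.83, 7.05, 6.62 and 12.7 CPM without and 20.4, 25.9, 28.0 and 21.1 CPM with PGE2. The groups did not overlap in either condition, although stimulated untreated replicate 4 stood above the other three. PGE2 raised Fasl 3.68-fold in unstimulated cells (log2 fold change 1.88, SE 0.198, adjusted p = 5.31e-05) and 2.82-fold in stimulated cells (1.49, SE 0.203, adjusted p = 0.00191). The beads raised it 2.12-fold without PGE2 (1.08, SE 0.241, adjusted p = 0.00152) and 1.67-fold with it (0.74, SE 0.137, adjusted p = 0.000687). Each factor was thus followed by more Fasl on its own, and the highest values were found with both. Fasl was at no more than 942 counts in a library, far below Gzmb at up to 190401 counts.

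Serpinb9, the granzyme B inhibitor, had the largest bead response together with Gzmb and Gzmc. It was at 25.9, 24.6, 25.7 and 44.8 CPM in unstimulated untreated cells and at 41.4, 44.7, 47.8 and 77.7 CPM with PGE2. Replicate 4 was the highest of both groups and brought them into overlap. In stimulated cells it was at 289.5, 228, 177 and 205 CPM without and 444, 375, 263 and 241 CPM with PGE2, with replicate 1 the highest of both groups and each PGE2-treated library above the untreated one of its number. PGE2 raised Serpinb9 1.78-fold in unstimulated cells (log2 fold change 0.83, SE 0.231, adjusted p = 0.0196), a call lost without untreated replicate 1, 2 or 3 (adjusted p = 0.0516, 0.0550 and 0.0593). With the replicate number as a block this call was kept. In stimulated cells the value was 0.57 (SE 0.203, adjusted p = 0.107), which missed the threshold, and with the replicate number as a block it was 0.54 (adjusted p = 0.000203). Stimulation raised Serpinb9 by 2.88 without PGE2 (SE 0.207, adjusted p = 1.35e-07) and by 2.66 with it (SE 0.253, adjusted p = 7.13e-06).

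Whether PGE2 changed the response to the beads was asked with the interaction term over all 16 libraries. None of the 10 members was called, beside 0.749% of 15096 genes, and DESeq2 called 0 of them as well. The term ran from -0.47 for Prf1 to 0.86 for Gzmk (SE 0.607), and its smallest unadjusted p among the members was 0.0596, for Srgn. For Gzmb it was -0.04 (SE 0.280, adjusted p = 0.997), for Nkg7 0.22 (SE 0.129, adjusted p = 0.687) and for Fasl -0.37 (SE 0.294, adjusted p = 0.83). Over all genes 1415 had an unadjusted p under 0.05. The PGE2 effects in stimulated and unstimulated cells were thus not shown to differ for any member, with SEs of the difference of 0.129 to 0.607 on the log2 scale.

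The opposite moves of Gzmb, Fasl and Serpinb9 changed their balance within each library. These ratios of FPKM were chosen after the values were seen and are given without a test. Gzmb over Serpinb9 was 61.4 ± 10.3 (SD, n = 4) in unstimulated untreated and 59.3 ± 12.6 in stimulated untreated cells, and 18.6 ± 1.31 and 21.8 ± 5.27 in the corresponding PGE2-treated cells. The ratio of protease to inhibitor transcripts was thus similar with and without beads, and lower in all 8 PGE2-treated libraries (15.5 to 26.5) than in all 8 untreated ones (42.3 to 73.1). Gzmb over Fasl was 262 ± 43.4 in unstimulated untreated, 37.9 ± 10.5 in unstimulated PGE2-treated, 891 ± 229 in stimulated untreated and 161 ± 21.6 in stimulated PGE2-treated cells. Gzmb over Srgn was 4.54 ± 1.38, 1.90 ± 0.725, 11.8 ± 2.25 and 5.89 ± 0.612 in the same order. Gzmb over Prf1 overlapped between PGE2-treated and untreated cells in both conditions (178 ± 94.4 against 110.01 ± 57.8 in unstimulated cells, and 299.7 ± 28.0 against 263 ± 40.6 in stimulated cells). Each PGE2-treated library was still below the untreated one of its number, by little in stimulated replicate 4 (282 against 284).

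**Figure D4:**
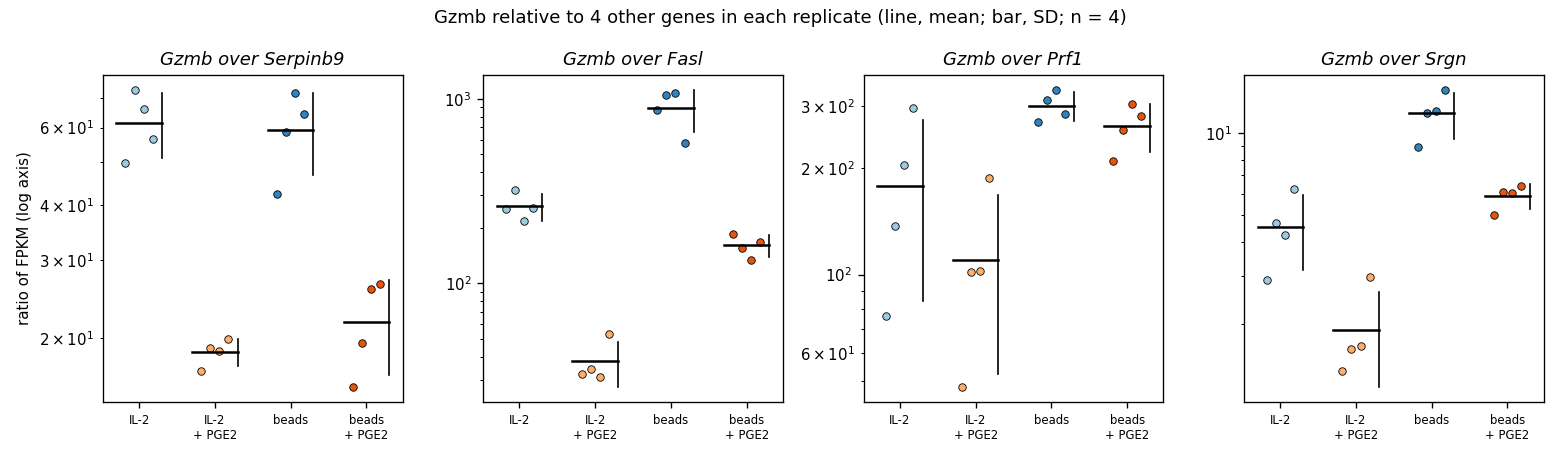
Ratio of the FPKM of Gzmb to that of Serpinb9, Fasl, Prf1 and Srgn in each library, on log axes (points are replicates, horizontal lines the mean and vertical bars the SD, n = 4). Gzmb over Serpinb9 sits between 42.3 and 73.1 in the 2 untreated groups and between 15.5 and 26.5 in the 2 PGE2-treated groups.

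Genes around the granule were read from 6 lists written from general knowledge with earlier results of these data known. The other granzymes of the chromosome 14 cluster (Gzmd, Gzme, Gzmf, Gzmg and Gzmn) had at most 18 counts in any library, and none of the 5 passed the filter. Of the cathepsins and their inhibitor, 3 of 6 tested were called in stimulated cells, 1 higher and 2 lower with PGE2, and 5 of 6 in unstimulated cells, 1 higher and 4 lower, beside 9.84% and 28.4% of all genes tested. Cst7, which encodes cystatin F, an inhibitor of the protease that activates granzymes, fell by 0.77 in stimulated cells (SE 0.0981, adjusted p = 0.00142) and by 0.84 in unstimulated cells (SE 0.0713, adjusted p = 1.34e-05). Ctsw, a cathepsin of killer cells, fell from 282 ± 14.1 to 212 ± 7.03 CPM in stimulated cells (log2 fold change -0.40, adjusted p = 0.00369), and Ctsl, a lysosomal cathepsin, rose by 0.53 (adjusted p = 0.0272), a call lost without stimulated PGE2-treated replicate 2, 3 or 4 or untreated replicate 1 or 2 (adjusted p of 0.0528 to 0.0863). In unstimulated cells Ctsw fell by 0.52 (adjusted p = 0.00168) and Ctsl rose by 0.45 (adjusted p = 0.00511). Ctsc, the protease that activates granzymes, is named for that role after its values were seen. It was not called in stimulated cells (-0.12, adjusted p = 0.414) and fell by 0.42 in unstimulated cells (adjusted p = 0.0162), with adjusted p of 0.0524 without PGE2-treated replicate 3 and 0.0733 without untreated replicate 2. Without either of these libraries 3 of the 6 genes were called in unstimulated cells.

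Of the other inhibitory serpins, 2 of 3 tested rose with PGE2 in each condition, beside 6.04% of genes called higher in stimulated and 12.9% in unstimulated cells, and the third, Serpinb6a, named here to account for the list, had values of 0.50 in stimulated and 0.42 in unstimulated cells (adjusted p = 0.173 and 0.132). Serpinb1a, an inhibitor of neutrophil-type serine proteases, went from 1.07 ± 0.203 to 2.87 ± 0.190 CPM in stimulated cells (log2 fold change 1.42, SE 0.181, adjusted p = 0.00142) and from 2.44 ± 0.498 to 4.54 ± 1.00 CPM in unstimulated cells (0.91, SE 0.211, adjusted p = 0.00754). Serpinb6b, whose family also inhibits serine proteases, rose by 0.43 in stimulated cells (adjusted p = 0.00489) and by 1.05 in unstimulated cells (adjusted p = 0.00672). In the fit of all 16 libraries the first of these had an adjusted p of 0.134.

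Genes of granule formation and release were mixed, with 5 of 22 tested called in stimulated cells (4 higher and 1 lower) and 9 of 22 in unstimulated cells (7 higher and 2 lower), beside 9.84% and 28.4% of all genes tested. With the replicate number as a block these counts were 13 and 15, beside 39.8% and 47.8% of genes. Without any 1 library the count in stimulated cells was 3 or 4, and in unstimulated cells it was 5 without PGE2-treated replicate 2 or 3 or untreated replicate 2 or 4, and 4 in the fit of all 16 libraries. Rab27a, the small GTPase that docks granules at the membrane, fell by 0.43 in stimulated cells (SE 0.0676, adjusted p = 0.00415) and by 0.44 in unstimulated cells (SE 0.0561, adjusted p = 0.000185). Lyst, the regulator of lysosome size that is mutated in Chediak-Higashi syndrome, rose by 1.33 (SE 0.144, adjusted p = 0.000564) and 1.10 (SE 0.232, adjusted p = 0.00445), from 49.2 ± 2.69 to 123 ± 27.8 CPM in stimulated cells. Ap3b1, an adaptor subunit for granule cargo, rose by 0.33 (adjusted p = 0.0113) and 0.28 (adjusted p = 0.00258). Sytl3, a Rab27 effector, fell by 0.50 in unstimulated cells (adjusted p = 0.00282) and had a value of -0.04 in stimulated cells (adjusted p = 0.913).

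The other death ligands fell where Fasl rose. Of 8 genes for death ligands, the receptor Fas and its caspase pathway, 4 fell and none rose with PGE2 in stimulated cells, and 5 fell and none rose in unstimulated cells, beside 3.8% and 15.5% of genes called lower. With the replicate number as a block 6 genes were called in each condition, beside 39.8% and 47.8% of genes. Lta, encoding lymphotoxin alpha, fell by 1.66 on the log2 scale in stimulated cells (SE 0.325, adjusted p = 0.0115), from 457 ± 49.1 to 143 ± 70.2 CPM, and by 1.38 in unstimulated cells (SE 0.127, adjusted p = 2.31e-05). Tnf fell by 1.32 (SE 0.270, adjusted p = 0.0142) and 1.21 (SE 0.171, adjusted p = 0.000357), and the first call was lost without stimulated PGE2-treated replicate 3 or untreated replicate 2 (adjusted p = 0.0520 and 0.0504). Tnfsf10, encoding TRAIL, fell by 0.76 (adjusted p = 0.0069) and 0.48 (adjusted p = 0.00414). Bid, which encodes a pro-apoptotic protein, fell by 1.12 in unstimulated cells (SE 0.0767, adjusted p = 4.86e-06) against -0.27 in stimulated cells (adjusted p = 0.242, or 0.00215 with the block). Bid was the only gene of the 6 lists with a called interaction (0.87, SE 0.169, adjusted p = 0.0218), which was lost without stimulated untreated replicate 1 or 3, stimulated PGE2-treated replicate 2, unstimulated untreated replicate 2 or unstimulated PGE2-treated replicate 2 or 3 (adjusted p of 0.0543 to 0.0684).

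Of 7 transcription factors of effector T cells, 1 fell in stimulated cells and 2 in unstimulated cells with PGE2, beside 3.8% and 15.5% of genes called lower. None was called higher, and the counts are small and close to the 9.84% and 28.4% of all genes called in either direction. With the replicate number as a block 4 and 7 were called, beside 39.8% and 47.8% of genes. Without PGE2-treated replicate 1 the count in stimulated cells was 2, and without PGE2-treated replicate 4 that in unstimulated cells was 4. Prdm1, encoding BLIMP-1, fell by 0.74 in stimulated cells (SE 0.160, adjusted p = 0.0198), a call lost without stimulated PGE2-treated replicate 3 or untreated replicate 2 or 3 (adjusted p = 0.0668, 0.0580 and 0.0552). Eomes fell by 1.13 in unstimulated cells (SE 0.242, adjusted p = 0.00495) and had a value of -0.80 in stimulated cells (adjusted p = 0.151, or 0.000668 with the block), where its replicates ran over 36.4 to 128 CPM with PGE2. Tbx21, encoding T-bet, fell by 0.41 in unstimulated cells (adjusted p = 0.00225, or 0.181 in the fit of all 16 libraries) and had a value of -0.12 in stimulated cells (adjusted p = 0.805).

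**Figure D5:**
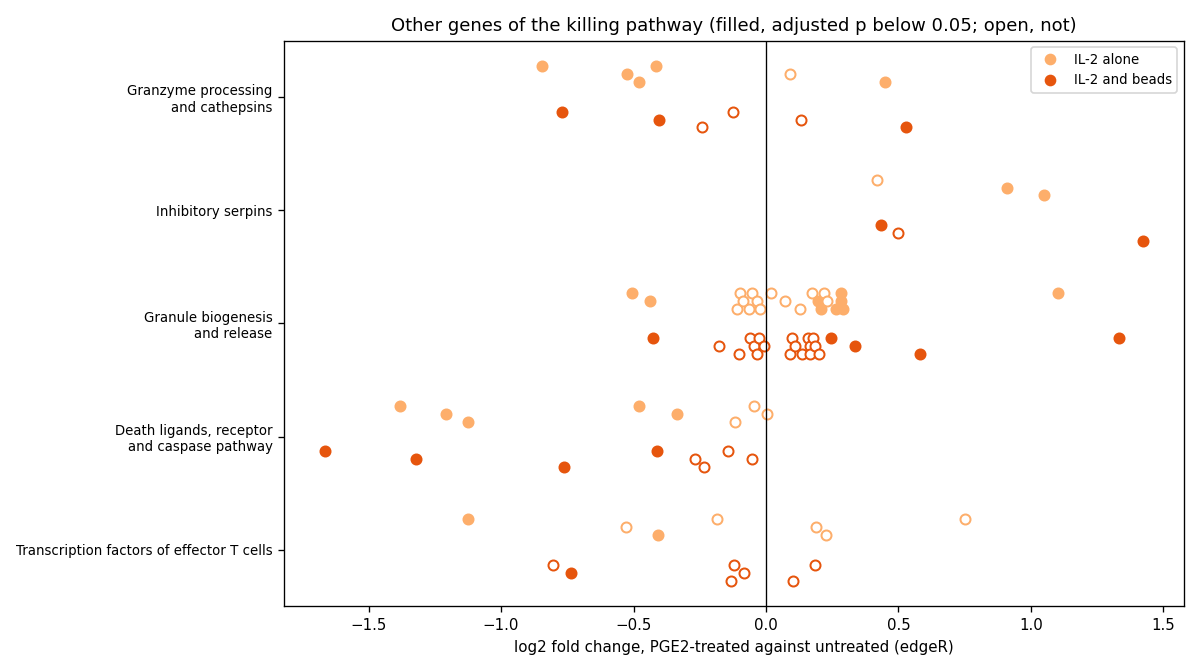
Log2 fold change with PGE2 on the x axis for the genes of 5 lists around the granule (each point is 1 gene, filled where the adjusted p is below 0.05, and vertical offsets only separate points). Serpins lie to the right of 0, with filled points from 0.43 to 1.42, and the filled points of the death ligand list all lie to the left, down to -1.66.

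The 4 members Gzmb, Prf1, Nkg7 and Fasl were matched with the genes whose log2 CPM was most like theirs over the 16 libraries, among the 8868 genes averaging 10 CPM or more. These Pearson correlations span the same 4 groups and libraries and are given as a description. For Gzmb the closest were Acot7 (r = 0.994), Asns (0.991) and Nek6 (0.991), and for Prf1 Faap24 (0.972), Stk40 (0.971) and Klhl2 (0.971). For Nkg7 the closest was Cst7 (0.988), itself on the cathepsin list, followed by Thy1 (0.986) and Ubash3b (0.981). For Fasl they were Ramp3 (0.977), Cblb (0.972), a ubiquitin ligase that restrains T cell activation, and Plaur (0.955). Among the members themselves, Gzmb ran closest to Gzmc (0.966), Srgn to Serpinb9 (0.973), and Fasl had r = 0.202 with Gzmb and -0.267 with Nkg7.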

How the data were processed

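RNA was measured in 16 libraries, 4 per group, grouped by the sample labels. The authors prepared poly(A) libraries (NEBNext Ultra, paired-end), aligned reads to GRCm38/mm10 with HISAT2 2.0.5 and deposited counts per gene from featureCounts 1.5.0-p3. A separate deposited table holds FPKM values computed by the authors, which were used for comparisons between genes and for rank and ratio. The strand setting and annotation release are not given in the sources used here. The authors tested with DESeq2 1.20.0.

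Counts were tested with edgeR 4.0.16 in R 4.3.3 (filterByExpr with minimum count 10, TMM factors, quasi-likelihood, two-sided, Benjamini-Hochberg over all genes tested), in pairs of groups with 8 libraries and no covariate, and on all 16 for the interaction. A gene was called at adjusted p below 0.05. The SE is the log2 fold change over the square root of F. CPM used TMM factors over all 16 libraries. Same-numbered replicates deviated together in 3 of the 4 pairwise comparisons (correlation of deviations of 0.112 to 0.444 over every pair). Between stimulated and unstimulated PGE2-treated cells the correlations were also positive but reached lower (0.0439 to 0.281). The alternatives were DESeq2 1.42.0, RLE or upper-quartile factors, no filter or at least 10 counts in every library, a fold change of at least 2 as a further condition, a fit of all 16 libraries, limma 3.58.1 on log2(FPKM + 1) and log2(FPKM + 0.1), a replicate block and leaving out each library. The steps were tested on simulated data with independent replicates, in which no scarce gene was given a change. Shared deviations of same-numbered replicates and changes in genes as scarce as Gzmk were therefore not covered. The members and gene lists were chosen with earlier results of these data known, and from each list up to 3 genes with the smallest adjusted p below 0.05 in each PGE2 comparison were named, except 1 that is not reported here. Depth of 22678254 to 42950763 counts left genes such as Gzmk at 2 to 24 counts a library.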

Additional observations from a re-analysis of the deposited data

Results flagged for a closer look

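A replicate stood far from the others of its group, past Dixon's limit, in 3 of the 40 groups examined (10 genes in 4 groups), where about 1 in 20 groups, or 2 here, would do so by chance. Prf1 in unstimulated PGE2-treated replicate 1 was at 10.7 CPM, with 6.44 CPM in the next library, a gap of 0.927 of the range of the group. Serpinb9 in unstimulated untreated replicate 4 was at 44.8 CPM against 25.9 CPM in the next (0.933 of the range). Gzmc in stimulated PGE2-treated replicate 2 was at 36.7 CPM against 29.9 CPM (0.877 of the range).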

How the results depend on the processing

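The number of members called was 5 in each alternative for PGE2 in stimulated cells (6 with the replicate block) and 6 or 7 in unstimulated cells. It was 8 to 10 for the beads without PGE2, 7 to 9 with PGE2 and 0 for the interaction. Without 1 library in turn these counts ran from 5 to 5, 5 to 7, 9 to 9, 7 to 8 and 0 to 0. Asking also for a fold change of 2 left 1 member for PGE2 in stimulated cells and 2 in unstimulated cells. Single calls that changed, beside those given above, were Gzmm with beads and no PGE2 (adjusted p = 0.0278 with upper-quartile factors and 0.0452 with limma on log2(FPKM + 1)), Gzmm with beads and PGE2 (0.0582 with DESeq2 and 0.0590 with no filter) and Gzma with beads and PGE2 (-0.23, adjusted p = 0.0451 with the block); the cause was not tested. The block changed no other member's call. Without 1 library in turn, 4 uncalled values changed sign: Srgn for PGE2 in stimulated cells (-0.013 to 0.20), Prf1 for PGE2 in unstimulated cells (-0.42 to 0.0043), and the interaction of Gzmb (-0.25 to 0.24) and of Gzmc (-0.064 to 0.31).

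Over all genes, the 1370 called for PGE2 in stimulated cells became 2066 with DESeq2, 2161 in the fit of all 16 libraries and 5544 with the block, and 630 to 1854 without 1 library (630 without untreated replicate 2 or PGE2-treated replicate 3, 760 and 792 without untreated replicates 1 and 3, and 843 without PGE2-treated replicate 4). The 4122 in unstimulated cells became 6938 with the block. The 113 of the interaction became 234 with DESeq2, 408 with the block, 43 and 53 with limma, and 44 to 217 without 1 library. Depth limits Gzmk most, at 2 to 24 counts in a library.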
